A study of Mus musculus with 8 samples.

Results

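Colon epithelium of mice labelled B3galt5D116A, which carry the D116A substitution in the galactosyltransferase B3galt5, was set against wild-type colon epithelium. The comparison used 4 of the 8 libraries of the series, chosen by genotype label: 1 male and 1 female B3galt5D116A library and 1 male and 1 female wild-type library. All mice were C57BL/6J and are labelled as having had no treatment, and the cells are labelled as primary colon epithelial cells. The other 4 libraries, 1 male and 1 female each of St6galnac6-/- and B3gnt7-/- mice, entered the shared estimate of spread and the comparisons between mutants. No age is given in the labels, nor whether the RNA of each library was pooled from several animals, so the spread behind each p-value may be technical. The labels also do not say what the substitution does to the enzyme, or whether the wild-type mice were littermates of the mutants.

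B3galt5 is a glycosyltransferase of the Golgi apparatus. It adds galactose to N-acetylglucosamine at the ends of growing sugar chains, which makes the so-called type 1 chains found on mucins and glycolipids of the gut. In the colon these chains can be capped further with sialic acid, among others by St6galnac6, while B3gnt7 lengthens the competing chains built of alternating galactose and N-acetylglucosamine. Colon epithelium holds absorptive colonocytes, mucus-making goblet cells, hormone-making enteroendocrine cells and the dividing cells of the crypts.

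Expression was given as FPKM, a fragment count divided by transcript length and by library size, for 24346 gene symbols. The FPKM sums of the 4 libraries ran from 589732 to 639537, with 11392 to 11483 genes reaching 1 FPKM in each. No counts were given. Estimated from low values (under 0.15 FPKM), the depth relative to the wild-type male library was 1.05 in the wild-type female, 1.45 in the mutant male and 1.26 in the mutant female library, an estimate on which 27.7% to 33.9% of the low genes lay within 0.01 log2. Epithelial genes were high in all 4 libraries, with the adhesion protein Epcam between 876 and 953 FPKM. Markers of other cells were low: summed over 9 genes, B and plasma cell markers stayed between 0.885 and 1.19 FPKM with Cd22 listed at 0, and 8 glial and neuronal markers stayed between 0.655 and 0.722 FPKM with Sox10 listed at 0. The 15 markers of T cells and intraepithelial lymphocytes summed to 31.3 and 24.4 FPKM in the wild-type male and female and to 16.7 and 43.6 FPKM in the mutant male and female. In the same 4 libraries, 14 myeloid markers summed to between 28.1 and 35.6 FPKM. There 12 stroma and muscle markers summed to between 11.9 and 16.5 FPKM, with 45.15 FPKM in the B3gnt7-/- female. Sex-linked genes matched the labelled sex in all libraries. On the log2(FPKM + 1) scale the 2 wild-type libraries differed by at least 1 at 77 genes and the 2 mutant libraries at 105 genes, against 128 to 250 genes for the 4 pairings of a mutant with a wild-type library.

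B3galt5 itself (mm10 chr16:96235801-96319859) was at 117 and 105 FPKM in the wild-type male and female and at 133 and 93.1 FPKM in the mutant male and female. The genotypes overlapped, and the log2 difference was 0.01 (SE 0.25, limma adjusted p = 0.994). Since the allele is a substitution, this level does not check the label. Of 7 tested genes within 1 Mb, B3galt5 included, limma called 0, and 1 had an unadjusted p under 0.05 (11.9% of all genes tested). That gene was the transcription factor Ets2 (log2 -0.50, adjusted p = 0.285).

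Genes were tested with limma where their mean in the 4 libraries compared reached 1 FPKM, which left 11489, in a fit of all 8 libraries with genotype and sex as terms. At a Benjamini-Hochberg adjusted p under 0.05, 10 genes (0.0870%) differed, 2 higher (0.0174%) and 8 lower (0.0696%) in the mutant. At an unadjusted p under 0.05 there were 1370 (11.9%), 681 higher and 689 lower. The hormone gene Insl5 and the transport protein gene Ttr rose. The kallikrein gene Klk1b22, the surface protein gene Psca, Erdr1, the keratin gene Krt36, the immediate early genes Nr4a1, Nr4a3 and Csrnp1 and the matrix glycoprotein gene Thbs1 fell. Thbs1 lay just inside the threshold (adjusted p = 0.0498), and the glutathione transferase Gsta3 and the protease inhibitor Timp3 just outside it (adjusted p = 0.0594 for each). When each of the 4 libraries was left out in turn, Klk1b22 stayed past the threshold each time and Erdr1 3 times, being lost without the wild-type female (adjusted p = 0.119). Insl5 and Psca were lost without either wild-type library (adjusted p up to 0.107 and 0.0802), Krt36, Csrnp1 and Nr4a3 without either wild-type library or the mutant male (adjusted p up to 0.286, 0.568 and 0.653), and Nr4a1, Ttr and Thbs1 without any 1 of the 4 (adjusted p up to 0.401, 0.653 and 0.653). With 1 library left in a genotype, that library is assumed to vary like the others. Log2 changes on the FPKM + 1 scale understate the change of genes at low FPKM.

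**Figure D1:**
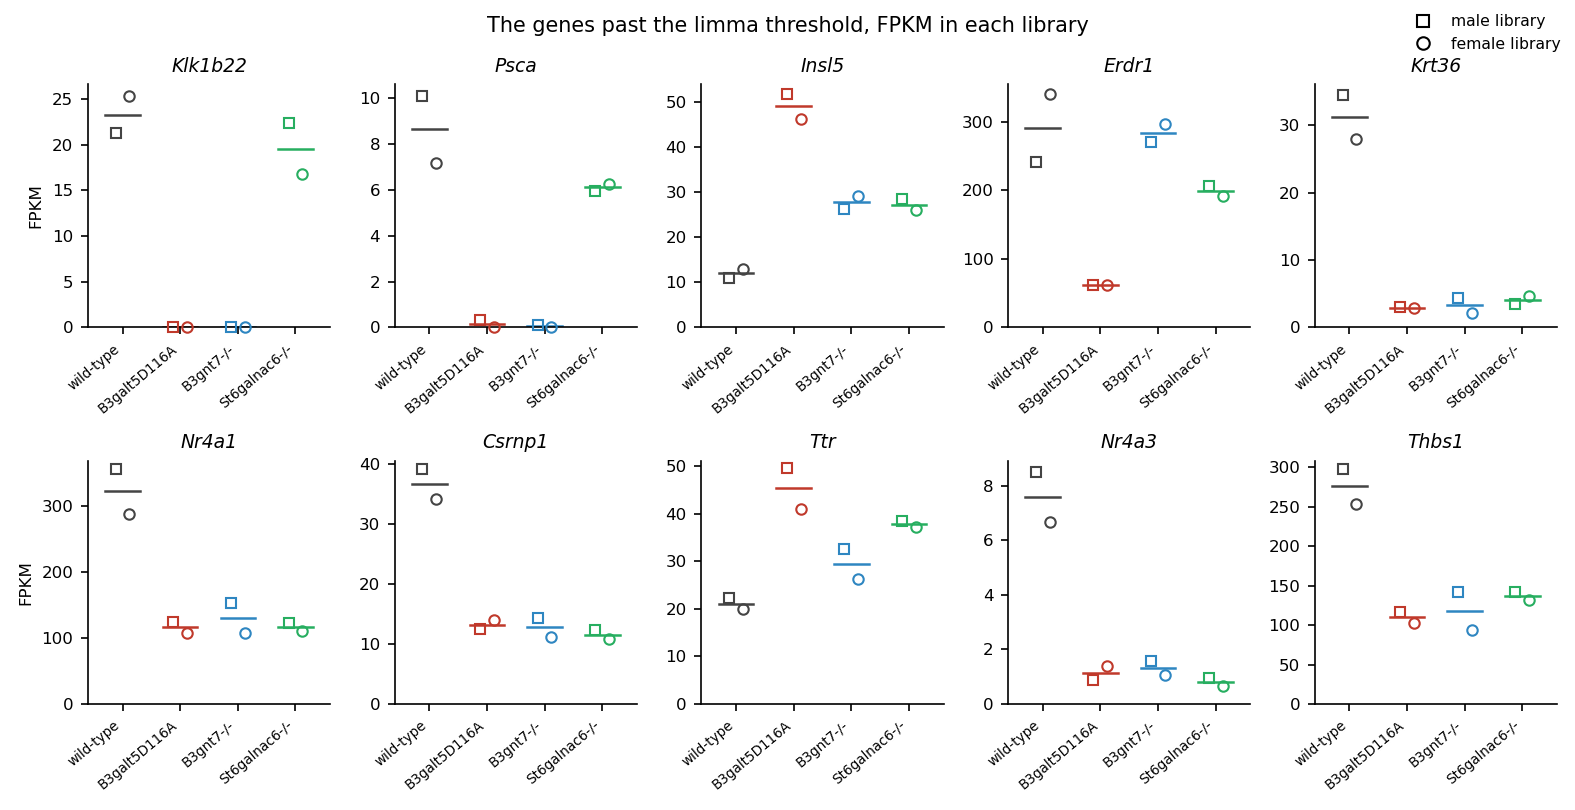
FPKM (vertical axes, from 0) of the 10 genes past the limma threshold in the comparison of B3galt5D116A with wild-type, in each of the 8 libraries. Squares are male and circles female libraries, and lines are the mean of the 2 libraries of a genotype. In every panel the 2 B3galt5D116A libraries lie on one side of both wild-type libraries, and Erdr1 is at 62.7 and 62.3 FPKM in B3galt5D116A with every other library at 192 FPKM or more.

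Genes were also ranked by the smallest shift, the smallest difference between any mutant and any wild-type library, which is 0 where the genotypes overlap. This ranking has no test, since 2 libraries against 2 allow no exact permutation p under 0.333 (two-sided). The genotypes did not overlap at 5896 genes (51.3%), 2976 higher (25.9%) and 2920 lower (25.4%). A smallest shift of at least 1 log2 was met by 33 genes (0.287%), 15 higher (0.131%) and 18 lower (0.157%), and one of at least 0.5 by 275 (2.39%). Ang4, a secreted antimicrobial ribonuclease, led the higher genes with 2.87, followed by Insl5 (1.75) and Retnlb (1.55), a goblet cell cytokine. Next came Cps1 (1.44), the carbamoyl phosphate synthetase of mitochondria, Hspb1 (1.37), a small heat shock protein, the phospholipase gene Pla2g4c (1.36), the small nucleolar RNA Snora24 (1.36) and Trf (1.33), the iron carrier transferrin. Klk1b22, listed at 0 in both mutant libraries, headed the lower genes, followed by Ndufs5 at -3.07. Krt36 was at -2.87 and Psca at -2.63. Snora23, also listed at 0 in both mutant libraries, came next. Erdr1 was at -1.93, Nr4a3 at -1.67 and the sulfotransferase Chst8 at -1.53. Of the 33 genes, 9 were past the limma threshold. Ttr, with a smallest shift of 0.85, was the 1 called gene under 1 log2.

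Several genes at either end of this ranking varied widely between libraries of the same genotype. Ndufs5, a subunit of respiratory complex I, stood at 7.41 and 16.1 FPKM in the wild-type libraries but at 0.002 FPKM in both mutant libraries, but it was at 6.60 and 0.001 FPKM in St6galnac6-/- and 13.7 and 0.001 FPKM in B3gnt7-/-. Its log2 difference did not pass (adjusted p = 0.349). Snora23, a small nucleolar RNA, was listed at 0 in both mutant libraries against 4.61 and 4.38 FPKM, and also at 0 in the St6galnac6-/- male. Between 2 and 4 of 80 ribosomal protein genes were listed at 0 in each library as well, so a 0 in these tables is given only as listed.

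**Figure D2:**
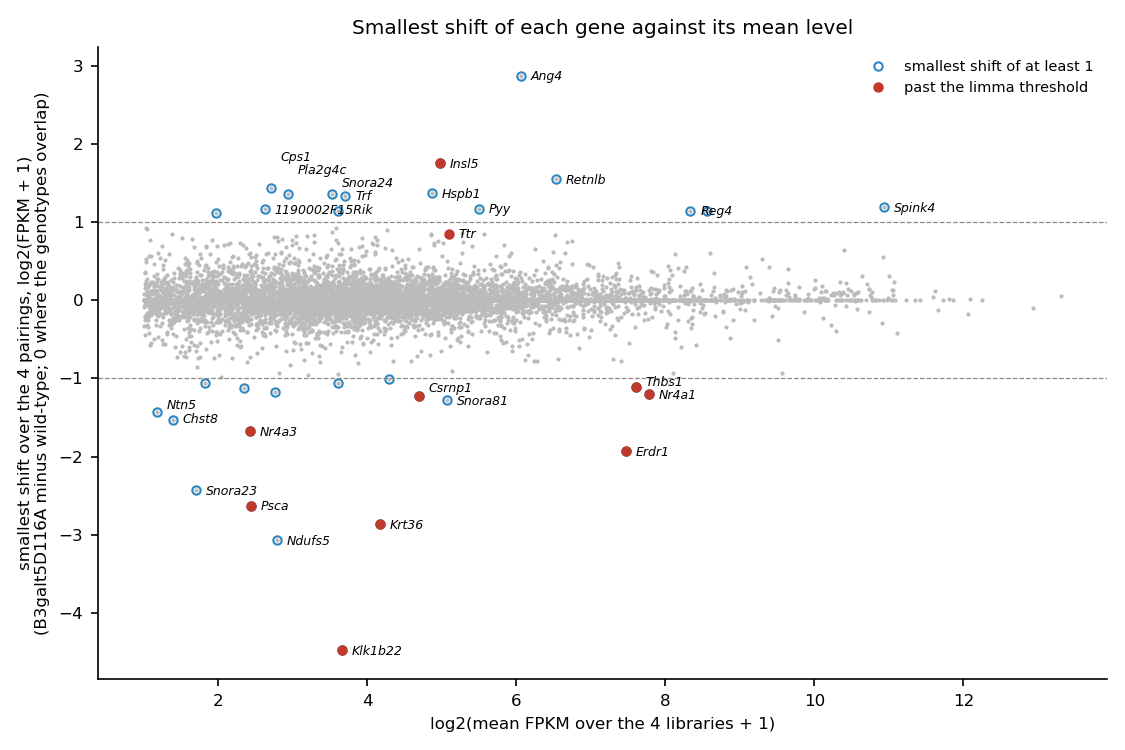
Smallest shift over the 4 pairings (vertical axis, log2(FPKM + 1), B3galt5D116A minus wild-type) against the log2 of the mean FPKM + 1 (horizontal axis) for 11489 genes. Filled red points are past the limma threshold, open blue points have a smallest shift of at least 1, and the other genes are grey. Ang4 stands highest at 2.87, and the 12 genes at each end are named with those past the threshold.

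Of the called genes, 3 are immediate early genes, which cells switch on within minutes of a stimulus. Their list of 42 tested genes was chosen with earlier results of these data known, so this count is not a test of the list. The orphan nuclear receptor Nr4a1 (mm10 chr15:101254269-101274795) was at 355 and 288 FPKM in the wild-type male and female and at 124 and 108 FPKM in the mutant male and female. Its relative Nr4a3 (chr4:48045153-48086447) was at 8.51 and 6.66 FPKM against 0.884 and 1.40 FPKM. The nuclear protein gene Csrnp1 (chr9:119971163-119984658) was at 39.1 and 34.1 FPKM against 12.4 and 14.0 FPKM. In all of them both mutant libraries were below both wild-type libraries, with log2 changes of -1.46 (SE 0.13, limma adjusted p = 0.0171) for Nr4a1, -2.01 (SE 0.22, adjusted p = 0.0400) for Nr4a3 and -1.40 (SE 0.14, adjusted p = 0.0336) for Csrnp1. The remaining family member Nr4a2, at 7.001 and 6.45 FPKM against 4.03 and 5.55 FPKM, did not pass (log2 -0.43, adjusted p = 0.431).

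Of 42 tested immediate early genes, 3 fell (0.0696% of all genes tested) and 0 rose (0.0174%) past the threshold over all genes. At an unadjusted p under 0.05, 26 were lower (6.00% of all genes tested) and 1 higher (5.93%). Both mutant libraries were below both wild-type libraries at 34 (25.4% of all genes tested) and above them at 4 (25.9%). The list median was -0.55, against 0.00103 over all genes. Summed over the list, the wild-type libraries were at 9881 and 8291 FPKM and the mutant at 5925 and 5848 FPKM, with 6147 and 5683 FPKM in St6galnac6-/- and 6866 and 6097 FPKM in B3gnt7-/-. The medians against B3gnt7-/- and St6galnac6-/- were -0.02 and 0.04. Without the wild-type male library 13 were lower at an unadjusted p under 0.05, and without the mutant male 15, with medians of -0.46 and -0.39. All 9 AP-1 transcription factor genes were lower in both mutant libraries (median -0.67). Among them Fosb was at 401 and 352 FPKM against 183 and 162 FPKM (log2 -1.12, adjusted p = 0.0818). Atf3, a stress-induced member, was at 1278 and 869 FPKM against 419 and 457 FPKM (log2 -1.27, adjusted p = 0.0957). Myc, named after its values were seen, was the member higher at an unadjusted p under 0.05, at 19.0 and 23.5 FPKM against 30.9 and 31.8 FPKM.

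The sequence before the transcription start is shown for the called genes of this group and for Fosb and Atf3, because they moved together. It is taken from RefSeq on GRCm38.p6, 5′ to 3′ in the direction of the gene, with each TGACG or its reverse complement CGTCA in capitals. TGACG is the core of the cAMP response element. The windows are the 250 bases before the RefSeq start of Nr4a1 (chr15:101266596-101266845, plus strand) and Nr4a3 (chr4:48045055-48045304, plus strand). For Csrnp1 (chr9:119984743-119984892, minus strand, the most upstream of 4 starts), Fosb (chr7:19310046-19310195, minus strand) and Atf3 (chr1:191183334-191183483, minus strand) they are the last 150 bases before the start.
Nr4a1: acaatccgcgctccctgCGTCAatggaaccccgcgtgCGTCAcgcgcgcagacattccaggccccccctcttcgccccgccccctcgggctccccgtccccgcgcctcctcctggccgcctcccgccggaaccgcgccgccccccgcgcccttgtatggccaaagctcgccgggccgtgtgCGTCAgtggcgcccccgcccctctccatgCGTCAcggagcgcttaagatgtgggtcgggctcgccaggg
Nr4a3: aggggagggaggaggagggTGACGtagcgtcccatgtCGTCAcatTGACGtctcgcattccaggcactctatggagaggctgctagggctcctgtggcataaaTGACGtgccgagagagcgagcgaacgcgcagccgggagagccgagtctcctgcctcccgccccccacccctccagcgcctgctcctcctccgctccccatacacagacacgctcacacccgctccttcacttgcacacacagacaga
Csrnp1: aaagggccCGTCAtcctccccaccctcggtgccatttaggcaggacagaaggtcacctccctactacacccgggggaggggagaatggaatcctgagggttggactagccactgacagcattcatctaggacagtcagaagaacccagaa
Fosb: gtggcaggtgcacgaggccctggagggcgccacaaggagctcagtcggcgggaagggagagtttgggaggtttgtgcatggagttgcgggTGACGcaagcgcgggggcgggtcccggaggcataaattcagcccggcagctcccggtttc
Atf3: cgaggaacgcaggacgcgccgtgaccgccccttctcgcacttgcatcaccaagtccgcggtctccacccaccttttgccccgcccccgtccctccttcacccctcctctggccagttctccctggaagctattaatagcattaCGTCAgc

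In 250 bases, Nr4a1, Nr4a2 and Nr4a3 held 4 matches to TGACG or CGTCA each, Csrnp1 held 1 or 2 at each of its 4 starts, and Fosb and Atf3 held 1 each. At least 1 match was found in 27% of 11178 promoters of tested genes, and 4 or more in 0.34% of them. Fosl2, Jun and Jund had 0 matches in this window and were lower in both mutant libraries as well. Fos held 2 matches and Junb 1. The full element TGACGTCA, which contains the core on both strands, was in 2.59% of the promoters of tested genes and in the windows of none of the 5 genes shown. Maff held it at 1 of its 3 starts. Fos, Junb and Maff were named after their values were seen. A match describes the letters only.

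**Figure D3:**
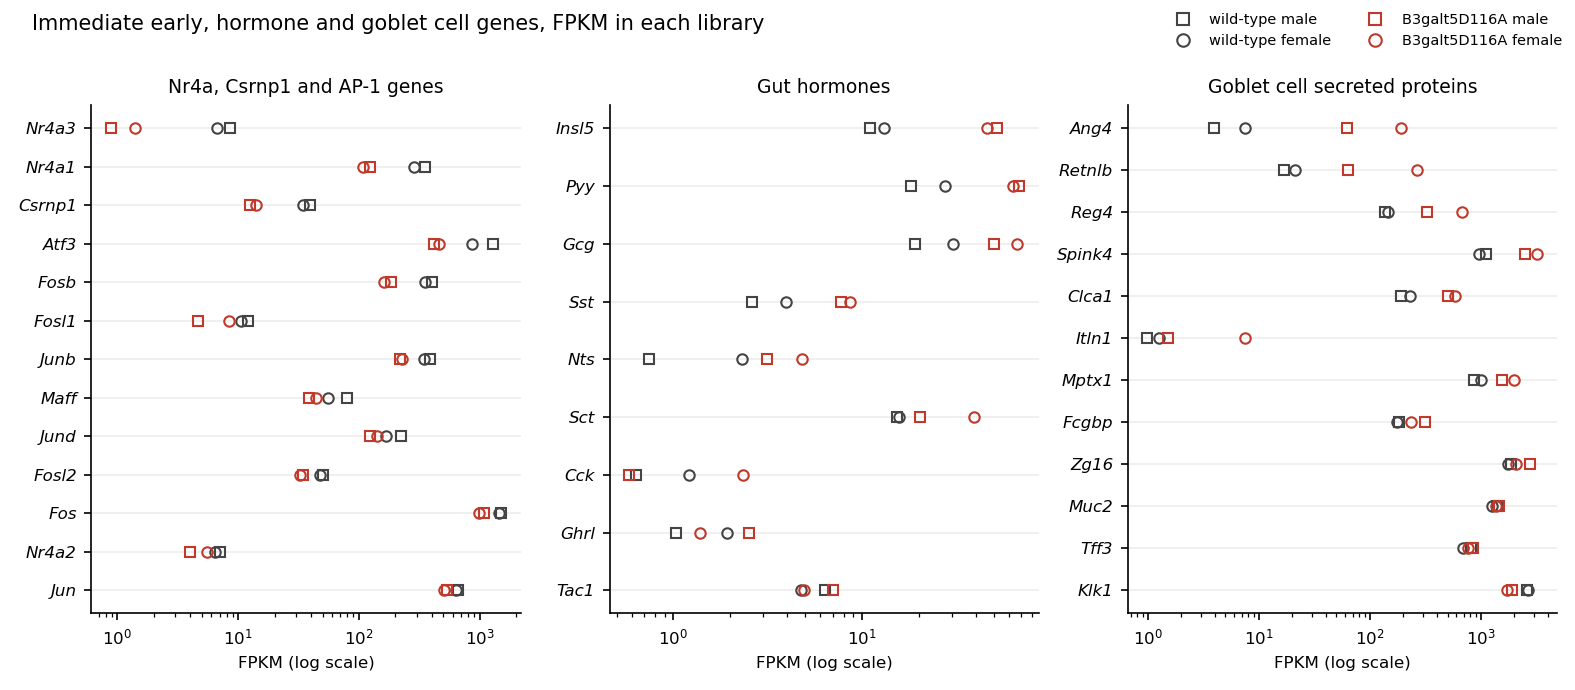
FPKM (horizontal axes, log scale) of 13 immediate early genes, 9 gut hormone genes and 12 genes for secreted goblet cell proteins in the 4 libraries of B3galt5D116A (red) and wild-type (grey), with squares for males and circles for females. All 13 immediate early genes are lower in both mutant libraries, 6 of the 9 hormone genes and 9 of the 12 goblet cell genes are higher in both, and Klk1 is the 1 goblet cell gene lower in both.

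Enteroendocrine genes stood higher in the mutant, led by Insl5 (mm10 chr4:103017872-103026842), an insulin-like peptide of colonic L cells. Insl5 was at 11.04 and 12.996 FPKM in the wild-type male and female and at 51.8 and 46.2 FPKM in the mutant male and female. Both mutant libraries were above both wild-type libraries, with a mean ratio of 4.08 and a log2 change of 1.94 (SE 0.14, 95% interval 1.62 to 2.26, limma adjusted p = 0.00635). The other L cell hormone genes did not pass. Pyy, which encodes peptide YY, was at 18.1 and 27.4 FPKM against 68.2 and 62.9 FPKM (log2 1.51, adjusted p = 0.246). Gcg, which encodes proglucagon, was at 19.0 and 30.3 FPKM against 49.8 and 66.5 FPKM (log2 1.22, adjusted p = 0.367). The D cell hormone gene Sst, for somatostatin, was at 2.60 and 3.95 FPKM against 7.70 and 8.67 FPKM (log2 1.12, adjusted p = 0.349). In each of these genes B3galt5D116A and wild-type did not overlap. Pyy was at 76.6 and 49.9 FPKM in St6galnac6-/- and 54.5 and 31.0 FPKM in B3gnt7-/-. Gcg was at 54.3 and 39.5 FPKM in St6galnac6-/- and 59.2 and 26.3 FPKM in B3gnt7-/-. Sst was at 7.49 and 4.21 FPKM in St6galnac6-/- and 3.89 and 7.95 FPKM in B3gnt7-/-.

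Ttr, the thyroid hormone carrier transthyretin, which enteroendocrine cells also make, was at 22.3 and 19.9 FPKM against 49.6 and 41.0 FPKM. It rose by 1.06 on the log2 scale (SE 0.11, limma adjusted p = 0.0400). Ttr was at 38.5 and 37.1 FPKM in St6galnac6-/- and 32.5 and 26.3 FPKM in B3gnt7-/-. Of 42 enteroendocrine genes 19 were tested, and 2 rose (0.0174% of all genes tested) and 0 fell (0.0696%) past the threshold. At an unadjusted p under 0.05, 7 were higher (5.93% of all genes tested) and 0 lower (6.00%), with a median of 0.67. With 1 of the 4 libraries left out, 4 to 11 were higher. The median was 0.26 without the wild-type male library and 0.98 without the wild-type female. The granule protein gene Chgb, for example, was at 16.9 FPKM in the wild-type male and 38.4 FPKM in the wild-type female, with 37.3 and 46.1 FPKM in the mutant (log2 0.68, adjusted p = 0.613). Of 9 tested hormone genes, 6 were higher in both mutant libraries (25.9% of all genes tested) and 0 lower in both (25.4%), with a median of 1.03. Summed over the enteroendocrine list, the wild-type libraries were at 151.1 and 220.2 FPKM and the mutant at 360.9 and 401.5 FPKM. The sums were 358.6 and 268.6 FPKM in St6galnac6-/- and 355.4 and 209.8 FPKM in B3gnt7-/-. The list medians against B3gnt7-/- and St6galnac6-/- were 0.39 and 0.25. In bulk tissue, more cells of a type and more RNA per cell cannot be told apart.

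Of 12 genes for secreted goblet cell proteins, 9 were higher in both mutant libraries (25.9% of all genes tested), 1 was lower in both (25.4%) and 2 overlapped with wild-type. Ang4 stood at 3.98 and 7.56 FPKM in the wild-type libraries but at 61.5 and 191 FPKM in the mutant male and female. Its log2 difference was 4.07 (SE 0.57, adjusted p = 0.0872), the highest of all tested genes, with the mutant female above the male. Ang4 was at 361 and 158 FPKM in St6galnac6-/- and 27.3 and 58.2 FPKM in B3gnt7-/-, also above wild-type. Retnlb was at 16.7 and 21.0 FPKM against 63.6 and 265 FPKM, again highest in the mutant female (log2 2.73, adjusted p = 0.272). Reg4, a secreted lectin, was at 138 and 146 FPKM against 325 and 681 FPKM (log2 1.72, adjusted p = 0.217). Spink4, a small protease inhibitor of goblet cells, was at 1099 and 968 FPKM against 2514 and 3225 FPKM (log2 1.46, adjusted p = 0.0957), and the mucus-processing protein Clca1 at 189 and 228 FPKM against 505 and 585 FPKM (log2 1.38, adjusted p = 0.336). Muc2, the gel-forming mucin, had a log2 difference of 0.09 (SE 0.21) and the trefoil peptide Tff3 of 0.09 (SE 0.16), and in both the genotypes overlapped.

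Of 32 goblet cell genes, 0 passed the threshold over all genes, 8 were higher (5.93% of all genes tested) and 1 lower (6.00%) at an unadjusted p under 0.05, and both mutant libraries were higher at 19 (25.9%) and lower at 1 (25.4%). The median was 0.36 over the list and 1.02 over the 12 secreted proteins, while against B3gnt7-/- and St6galnac6-/- the list medians were -0.03 and -0.08. It was 0.19 without the mutant male library, and without the mutant female 15 genes were higher at an unadjusted p under 0.05. The lower gene was Klk1, tissue kallikrein, at 2572 and 2660.1 FPKM against 1916 and 1712 FPKM (log2 -0.53, adjusted p = 0.393). The protein disulfide isomerase Pdia5 was at 29.5 and 34.7 FPKM against 57.5 and 47.3 FPKM (log2 0.69, adjusted p = 0.253), and its relatives Pdia4 and Pdia6 had log2 differences of 0.60 and 0.58. Of 25 endoplasmic reticulum folding and stress genes 0 passed, and the median was 0.23. At an unadjusted p under 0.05, 5 of them were higher (5.93% of all genes tested) and 1 lower (6.00%).

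**Figure D4:**
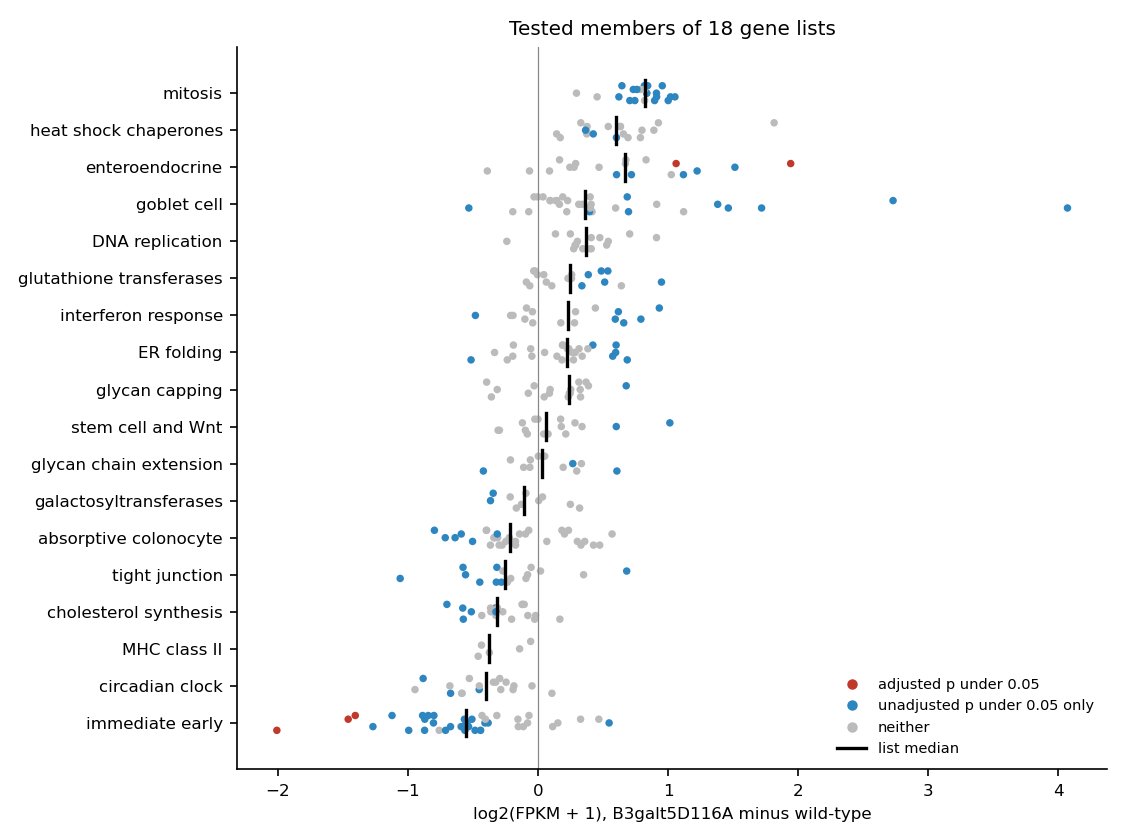
Log2 difference between B3galt5D116A and wild-type (horizontal axis, log2(FPKM + 1)) of the tested members of 18 gene lists. Points are genes, coloured by limma adjusted p under 0.05, unadjusted p under 0.05 only, or neither, and black bars are list medians. All 22 mitosis genes lie right of 0 with a median of 0.82, and 37 of the 42 immediate early genes lie left of it.

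All 22 mitosis genes were higher in both mutant libraries than in both wild-type libraries (25.9% of all genes tested), and their median was 0.82. Over all genes tested none passed, and 17 were higher at an unadjusted p under 0.05 (5.93%). That count was 1 or 2 when any of the 4 libraries was left out, with medians of 0.77 to 0.86. The list summed to 514 and 556 FPKM in the mutant against 282 and 306 FPKM, and to 358 and 678 FPKM in St6galnac6-/- and 520.2 and 308 FPKM in B3gnt7-/-. Ccna2, cyclin A, was at 17.5 and 19.2 FPKM against 35.2 and 40.4 FPKM (log2 1.002, adjusted p = 0.387). The spindle protein Nusap1 was at 6.75 and 7.04 FPKM against 14.2 and 15.8 FPKM (log2 1.02, adjusted p = 0.339). Among 16 DNA replication genes 13 were higher in both mutant libraries (25.9% of all genes tested). None had an unadjusted p under 0.05 (11.9%), and the median was 0.37. The 16 tested stem cell and Wnt pathway genes had a median of 0.06. Among them Smoc2, a matrix protein of crypt base cells, was at 7.65 and 11.5 FPKM against 21.9 and 18.3 FPKM (log2 1.01, adjusted p = 0.217).

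Heat shock chaperones were higher in both mutant libraries at 18 of 19 genes (25.9% of all genes tested) and lower at 0, and their median was 0.60. None passed, and 3 were higher at an unadjusted p under 0.05 (5.93% of all genes tested). That count was smaller with any 1 of the 4 libraries left out (medians of 0.33 to 0.86). Summed over the list they were at 6522 and 6877 FPKM in the mutant against 4093 and 4671 FPKM in wild-type, while St6galnac6-/- had 6440 and 6248 FPKM and B3gnt7-/- had 6738 and 2615 FPKM. Without the B3gnt7-/- female library, which enters only the shared spread, 17 had an unadjusted p under 0.05. Hspb1 was at 8.54 and 16.1 FPKM against 44.9 and 43.0 FPKM in the mutant, and at 57.3 and 3.002 FPKM in B3gnt7-/- (log2 1.82 against wild-type, SE 0.97, adjusted p = 0.486).

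Negative medians were also found for the lists of cholesterol synthesis, the clock, tight junctions and absorptive cells, of whose members 0 passed over all genes. Against B3gnt7-/- the B3galt5D116A medians were -0.26 for cholesterol synthesis, -0.24 for the clock, 0.01 for tight junctions and 0.04 for absorptive cells. Against St6galnac6-/- they were -0.04, -0.29, 0.09 and 0.30 in the same order. Against wild-type, medians were -0.54 for 4 kallikreins, -0.37 for 5 major histocompatibility complex class II genes, -0.27 for 8 Ly6 family genes and -0.23 for 12 posterior Hox and colon identity genes. Of 20 cholesterol synthesis genes 6 were lower (6.00% of all genes tested) and 0 higher (5.93%) at an unadjusted p under 0.05 (median -0.32). The median was -0.04 without the wild-type male library, in which Sqle, squalene epoxidase, was at 83.4 FPKM against 56.7 FPKM in the wild-type female and 46.1 and 45.5 FPKM in the mutant. Of 18 circadian clock genes 3 were lower (6.00% of all genes tested) and 0 higher (5.93%) at an unadjusted p under 0.05 (median -0.40). No collection times are given in the labels. The clock repressor Nr1d1 was at 77.5 and 79.6 FPKM against 48.9 and 36.4 FPKM (log2 -0.88, adjusted p = 0.266). Cry2, another repressor, was at 9.67 and 9.58 FPKM against 5.86 and 5.50 FPKM (log2 -0.67, adjusted p = 0.363).

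Of 16 tight junction genes 7 were lower (6.00% of all genes tested) and 1 higher (5.93%) at an unadjusted p under 0.05 (median -0.25). Fewer were lower when any of the 4 libraries was left out, with medians of -0.29 to -0.16. The sealing claudin Cldn4 was at 180.3 and 129 FPKM against 62.8 and 84.1 FPKM (log2 -1.06, adjusted p = 0.333). It was at 73.2 and 53.9 FPKM in St6galnac6-/- and 90.3 and 46.9 FPKM in B3gnt7-/-. Occludin, Ocln, was at 66.0 and 55.5 FPKM against 40.7 and 41.1 FPKM (log2 -0.56, adjusted p = 0.264). The pore-forming claudin Cldn2 was the higher one, at 50.2 and 78.0 FPKM against 99.3 and 103 FPKM (log2 0.68, adjusted p = 0.339). Of 32 absorptive colonocyte genes 6 were lower (6.00% of all genes tested) and 0 higher (5.93%) at an unadjusted p under 0.05 (median -0.21). Both mutant libraries were below both wild-type libraries at 17 (25.4% of all genes tested) and above them at 5 (25.9%). Summed over the list, the genes were at 29010 and 38570 FPKM in the mutant male and female against 32760 and 31570 FPKM, so the mutant female was above both wild-type libraries. Saa1, an acute phase gene product, stood at 851 and 999 FPKM against 599.7 and 470.2 FPKM (log2 -0.79, adjusted p = 0.301), and the phosphate transporter Slc20a1 at 345 and 332 FPKM against 189 and 249.8 FPKM (log2 -0.64, adjusted p = 0.347). The keratin gene Krt20, also in the list, was higher, at 509 and 467 FPKM against 586 and 735 FPKM (log2 0.43, adjusted p = 0.465). With 1 of the 4 libraries left out, the genes lower at an unadjusted p under 0.05 numbered 1 to 12 for cholesterol synthesis, the 12 being without the wild-type female, 1 to 4 for the clock and 1 to 8 for absorptive cells, of which 4 were higher and 8 lower without the mutant male. Of 15 sodium and potassium transport genes 2 were higher (5.93% of all genes tested) and 2 lower (6.00%) at an unadjusted p under 0.05, with a median of -0.07. Fxyd4, a regulator of the sodium pump, was at 92.8 and 109.9 FPKM against 42.2 and 53.9 FPKM (log2 -1.07, adjusted p = 0.266). The related Fxyd3 was at 64.7 and 81.9 FPKM against 106 and 98.8 FPKM (log2 0.48, adjusted p = 0.362). The potassium channel subunit gene Kcne3 was at 169 and 139 FPKM against 220.3 and 209 FPKM (log2 0.48, adjusted p = 0.376).

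Of 40 tested genes in 3 lists of glycan enzymes around B3galt5, 0 passed. The median was -0.11 for 10 galactosyltransferases, 0.03 for 12 enzymes of chain extension and branching and 0.24 for 18 capping enzymes. Of the capping enzymes, 13 had a positive and 5 a negative log2 difference. At an unadjusted p under 0.05 the lists held 3 higher (5.93% of all genes tested) and 3 lower (6.00%) genes together. Among these were Gcnt3 (log2 0.61, limma adjusted p = 0.400) and B3gnt2 (log2 -0.42, adjusted p = 0.349). B3gnt7 was at 215 and 189.8 FPKM against 266 and 154 FPKM (log2 0.004, adjusted p = 0.997). St6galnac6 was at 368 and 343 FPKM against 495 and 363 FPKM (log2 0.25, adjusted p = 0.558), and the genotypes overlapped in both genes. In the lines named for them, RNA of both genes was still listed. B3gnt7 was at 68.8 and 142 FPKM in the B3gnt7-/- male and female, and St6galnac6 at 218 and 232 FPKM in those of St6galnac6-/-. B4galt5, which makes lactosylceramide, was at 15.3 and 14.2 FPKM against 12.1 and 10.4 FPKM (log2 -0.36, adjusted p = 0.392). B4galnt4 was at 0.960 and 0.710 FPKM against 1.59 and 2.32 FPKM (log2 0.68, adjusted p = 0.349).

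The kallikrein Klk1b22 (mm10 chr7:44112673-44116922) was at 21.3 and 25.3 FPKM in the wild-type male and female and listed at 0 in both mutant libraries (limma adjusted p = 3.32e-04). It was also listed at 0 in both B3gnt7-/- libraries and at 22.3 and 16.8 FPKM in St6galnac6-/-. Klk1b22 has close paralogs, between which reads are hard to assign: Klk1b4 was at 2.27 and 1.54 FPKM against 2.34 and 2.19 FPKM in the mutant, and Klk1b5 at 3.76 and 2.08 FPKM against 2.48 and 0.995 FPKM. Psca, a lipid-anchored surface protein of the Ly6 family (chr15:74714839-74717069), stood at 10.1 and 7.20 FPKM in the wild-type libraries but at 0.326 and 0 FPKM in the mutant (log2 -3.05, SE 0.19, adjusted p = 0.00412). In B3gnt7-/- it was at 0.112 and 0 FPKM, and in St6galnac6-/- at 5.97 and 6.27 FPKM. Its neighbour Them6 (chr15 from 74721204), named after its values were seen, was at 3.05 and 2.59 FPKM against 1.27 and 0.829 FPKM (log2 -0.90, adjusted p = 0.217). Of 8 tested Ly6 family genes, 1 had a positive log2 difference and 7 a negative one. The positive one was Ly6g6c, at 1.36 and 1.16 FPKM against 5.06 and 4.11 FPKM in the mutant (log2 1.30, adjusted p = 0.0818).

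Krt36, a hair-type keratin (mm10 chr11:100102007-100105626), was at 34.4 and 27.9 FPKM in the wild-type male and female and at 2.96 and 2.91 FPKM in the mutant (log2 -3.02, SE 0.25, limma adjusted p = 0.0116). Both mutant libraries were below both wild-type libraries, and the St6galnac6-/- libraries, at 3.54 and 4.62 FPKM, and the B3gnt7-/- libraries, at 4.42 and 2.098 FPKM, were low as well. Of 7 tested keratin genes Krt36 was the 1 called. Thbs1, thrombospondin 1 (chr2:118111876-118127133), was at 298 and 254 FPKM against 117 and 103 FPKM (log2 -1.32, SE 0.15). It was at 142 and 132 FPKM in St6galnac6-/- and 142 and 94.0 FPKM in B3gnt7-/-.

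Erdr1 is given no position here, because positions were used only for symbols with exactly 1 entry in the annotation. It stood at 242 and 341 FPKM in the wild-type libraries but at 62.7 and 62.3 FPKM in the mutant (log2 -2.18, SE 0.16, adjusted p = 0.00784). It was at 206 and 192 FPKM in St6galnac6-/- and at 271 and 297 FPKM in B3gnt7-/-, so that both B3galt5D116A libraries were below all others. In the direct comparison with B3gnt7-/-, Erdr1 was the 1 gene past the threshold (0.00870% of genes tested, with 4.18% at an unadjusted p under 0.05; log2 -2.16, SE 0.16, limma adjusted p = 0.0334). Against St6galnac6-/- it did not pass (log2 -1.66, adjusted p = 0.0510).

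Against St6galnac6-/- 3 genes passed (0.0261%, with 3.52% at an unadjusted p under 0.05), of which Klk1b22 (adjusted p = 4.91e-04) and Psca (log2 -2.63, adjusted p = 0.00769) were lower in B3galt5D116A. Naip6, a sensor of bacterial flagellin named after its values were seen, was higher (log2 3.72, adjusted p = 0.00212). Naip6 was at 14.5 FPKM in the male and 11.958 FPKM in the female of B3galt5D116A, close to the wild-type libraries at 13.4 and 15.026 FPKM, and it was under 0.1 FPKM in both St6galnac6-/- libraries. The other called genes did not differ from the other mutants past the threshold. Insl5, at 28.4 and 26.0 FPKM in St6galnac6-/- and 26.2 and 29.2 FPKM in B3gnt7-/-, was higher in both B3galt5D116A libraries (log2 0.83, adjusted p = 0.330, and log2 0.80, adjusted p = 0.671). Nr4a1, at 123 and 111 FPKM in St6galnac6-/- and 152 and 108 FPKM in B3gnt7-/-, overlapped with B3galt5D116A in both. The wild-type libraries are shared by all comparisons with wild-type. The major histocompatibility complex class II gene H2-Aa was at 2.38 and 1.89 FPKM in B3galt5D116A, near the wild-type values of 3.69 and 2.49 FPKM. It was at 12.3 and 15.7 FPKM in St6galnac6-/- (log2 -2.26, limma adjusted p = 0.0592). In B3gnt7-/- it was at 13.1 and 7.59 FPKM (log2 -1.82, adjusted p = 0.605). Over 5 class II genes the B3galt5D116A medians against St6galnac6-/- and B3gnt7-/- were -1.71 and -1.13.

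A group of neighbouring genes on chromosome 7 was found after the values were seen. At an unadjusted p under 0.01, 21 genes differed in the same direction from both wild-type and St6galnac6-/-. Of them, 20 had exactly 1 position in the annotation and 9 lay on chromosome 7, which held 853 of the 11049 genes so placed. Of these, 8 lay within 11.3 Mb (mm10 chr7:34674468-45948963), a stretch with 96 tested genes, of which 23 (24%) had an unadjusted p under 0.05 against wild-type, compared with 13.7% on chromosome 7 and 11.9% of all genes tested. The 8 genes that set the edges of the stretch are among the 23, so this share is raised by the choice. Klk1b22 is 1 of the 8. Pop4, a subunit of ribonuclease P (chr7:38261996-38271423), was at 15.8 and 18.6 FPKM in the B3galt5D116A male and female and at 15.2 and 12.4 FPKM in those of B3gnt7-/-, where the wild-type libraries had 6.63 and 3.68 FPKM and those of St6galnac6-/- 5.04 and 4.58 FPKM (95% interval of the log2 change against wild-type 1.11 to 2.09, adjusted p = 0.0818). Chst8 (chr7:34674468-34812711) was at 0.259 and 0.336 FPKM in the B3galt5D116A libraries and 0.268 and 0.320 FPKM in those of B3gnt7-/-, where wild-type had 2.87 and 3.04 FPKM and St6galnac6-/- had 2.63 and 1.59 FPKM (log2 -1.61, adjusted p = 0.0818). In these genes B3galt5D116A and B3gnt7-/- stood together on one side and wild-type and St6galnac6-/- on the other. The others were Zfp939, Ntn5, Emc10, Ccdc114 and 0610005C13Rik, with adjusted p between 0.0818 and 0.349 against wild-type. The set of genes at an unadjusted p under 0.01 against both wild-type and B3gnt7-/- also held 21 genes, 1 of them on chromosome 7. The labels do not give the breeding of the lines, and the part of the surrounding genome in these differences was not tested.

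**Figure D5:**
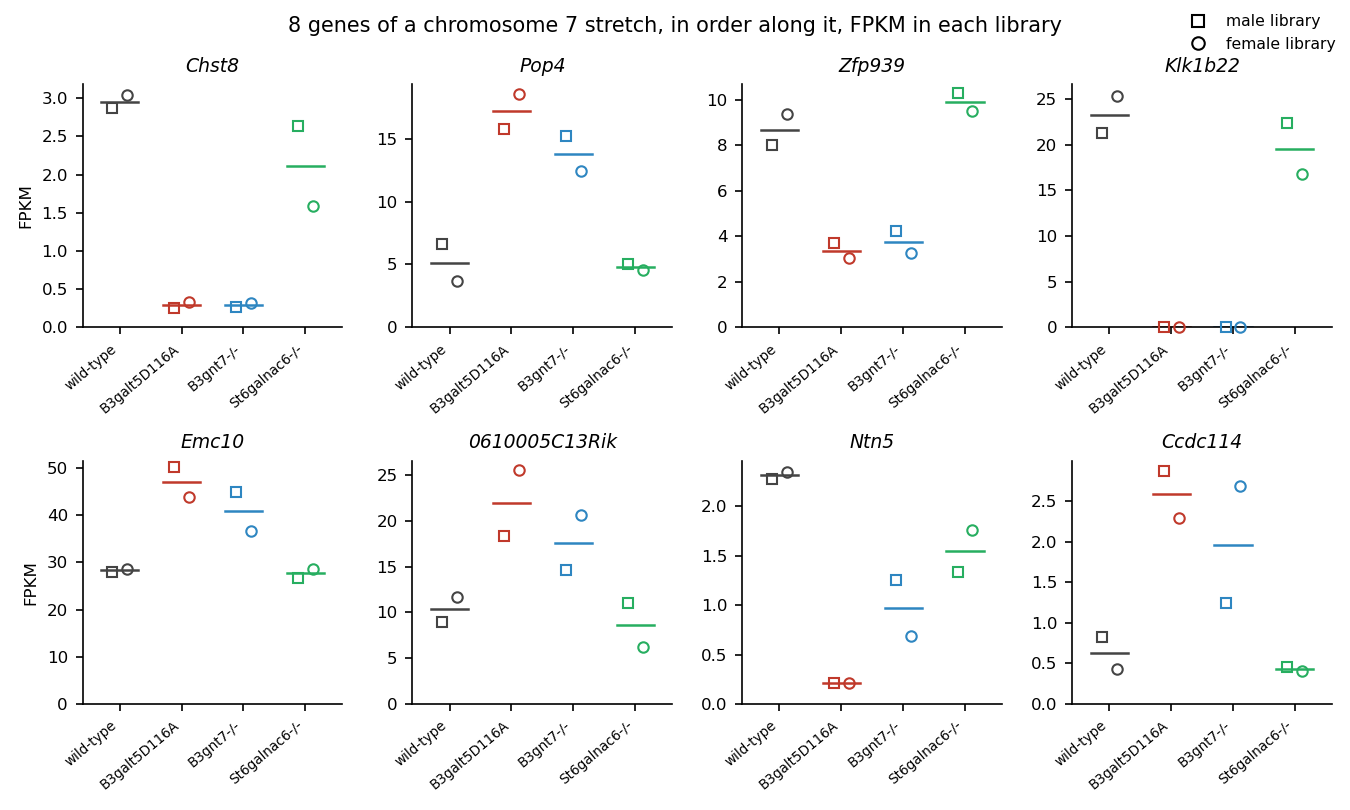
FPKM of the 8 chromosome 7 genes in each of the 8 libraries, with squares for male and circles for female libraries. The B3galt5D116A and B3gnt7-/- libraries lie on one side of the wild-type and St6galnac6-/- libraries, as for Pop4, at 12.4 FPKM or more against 6.63 FPKM or less.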

How the data were processed

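RNA of colon epithelial cells was extracted with the miRNeasy Micro Kit and made into TruSeq stranded mRNA libraries, per the labels' protocols. The deposited values are FPKM per gene and library. Cuffdiff 2.2.1, SAMtools 0.1.18, TopHat2 2.1.1 and Bowtie2 2.2.8 were used with the mm10 build, per the submitters' processing notes; parameters, the annotation and any scaling between libraries are not given in the sources used here.

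From these values, log2(FPKM + 1) was fitted with limma 3.58.1 in R 4.3.3 (genotype and sex as terms, 8 libraries, 3 residual and 4.1 prior degrees of freedom, empirical Bayes with a trend), for 11489 genes whose mean in the 4 libraries compared reached 1 FPKM. P-values were adjusted over all of them by Benjamini-Hochberg at 0.05. The fit was tested on simulated data. Tables used Python 3.11.15, numpy 2.4.6 and pandas 2.3.3. Positions, from GENCODE M21 on GRCm38 (mm10), were used where a symbol had exactly 1 entry, which held for 11049 genes (96.2%). Depth is known only as the relative estimate given above, so no counting intervals are given.

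The comparison and the 34 gene lists (598 genes) were chosen with earlier results of these data known. Genes named are those past the threshold, the 12 at each end of the smallest shift ranking, the 3 targeted genes, and of each list its called members and up to 5 with the largest smallest shift (all hormone, Nr4a, kallikrein and Ly6 genes). Ets2, Timp3, Chgb, Muc2, Tff3, Fosl2, Jun, Jund and the genes so marked in the text were named after their values were seen. Alternatives were pseudocounts of 0.1 and 5, no filter and a mean of 5 FPKM, quantile normalization, median centring, a fit without sex, a fit of the 2 genotypes only, robust variance, and each library left out.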

Additional observations from a re-analysis of the deposited data

Results flagged for a closer look

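In several values the male and female comparisons of B3galt5D116A with wild-type had opposite signs. Each rests on 1 library per genotype and sex, and the difference between the sexes was not tested. B3galt5 had a log2 difference of 0.186 in males and -0.172 in females, and B3gnt7 of 0.305 and -0.297. The list medians in males and females were 0.114 and -0.031 for chain extension and branching enzymes, 0.12 and -0.0816 for stem cell and Wnt genes, -0.266 and 0.0131 for keratins, 0.0215 and -0.318 for posterior Hox and colon identity genes, and -0.0761 and 0.06 for defining epithelial genes. Markers of T cells and intraepithelial lymphocytes had medians of -0.556 in males and 0.709 in females, and myeloid markers of -0.00968 and 0.344.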

How the results depend on the processing

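The count of 10 genes past the threshold against wild-type was 8 to 11 with pseudocounts of 0.1 and 5, a mean of 5 FPKM, quantile normalization, median centring and robust variance. It was 3 with no filter, 29 without the sex term and 122 (68 higher, 54 lower) in a fit of the 2 genotypes only. Leaving out 1 of the 4 libraries gave 3 to 13. Leaving out a library of another mutant, added after seeing the data, gave 7 to 33, with 33 without either B3gnt7-/- library. Against B3gnt7-/- the count of 1 was 0 with no filter and 0 with quantile normalization, and 0 to 49 with a library left out, 49 being without the B3gnt7-/- male. Against St6galnac6-/- the count of 3 was 5 with a pseudocount of 0.1, 1 with no filter, and 2 to 7 with a library left out. Genes with a smallest shift of at least 1 log2, 33, were 58 with a pseudocount of 0.1 and 17 with 5, and 64 to 108 with a library left out, where fewer pairings are compared. The log2 difference of B3galt5 changed sign with quantile normalization (-0.025), and with a library left out it ran from -0.38 to 0.40, negative without the wild-type female and without the mutant male. That of B3gnt7 was -0.033 with quantile normalization and ran from -0.58 to 0.59, negative without the same libraries. Of 638 values for 80 genes, 552 kept their direction and side of the threshold. Of 180 values for 30 list medians, 130 moved by less than the SD between the male and female medians, 50 moved further and 11 changed sign. Where a cause is not named, the cause was not tested. No paired analysis was possible because the labels give no replicate numbers; sex is a term of the model. With 2 libraries a genotype and no counts, differences smaller than the spread cannot be resolved.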
